A study of Mus musculus with 21 samples.

Results

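The genes described here encode 8 secreted matrix proteins grouped as matricellular: Tnc (tenascin-C), Fn1 (fibronectin), Thbs1 and Thbs2 (thrombospondins), Sparc, Ccn1, Ccn2 and Postn (periostin). They were taken by symbol from a deposited table of 56980 genes. Each symbol occurred once, and all 8 passed the filter on low counts that left 18192 genes for testing. The libraries came from ovaries of wild-type mice and hold cumulus-oocyte complexes (COCs), in which cumulus granulosa cells enclose the oocyte. COCs were sequenced before culture (START, 0 h) or after 4, 8 or 12 h of maturation in medium with epidermal growth factor and 5% fetal bovine serum. Culture was with DMSO (CTL) or with an inhibitor of proprotein convertases (PCI) at 10 µM. This gave 7 groups of 3 libraries that the labels call biological replicates, 21 libraries in all. The sources used here do not give the mouse strain, the age, or the number of animals or COCs pooled per library. The p-values therefore measure the spread between these libraries, whatever its source.

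Matricellular proteins are secreted into the extracellular matrix, where they act less as scaffolding than as signals: they bind integrins, syndecans and growth factors and change how cells attach, spread and respond. Fibronectin is also a structural protein, assembled into fibrils by the integrin of the alpha 5 and beta 1 chains. In the ovary, cumulus cells build a hyaluronan-rich matrix around the oocyte during maturation, and proprotein convertases such as furin cut many precursors of matrix, receptor and growth factor proteins into their mature forms. The data measure messenger RNA, so neither secretion nor cleavage of the proteins was seen.

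Libraries held 19458618 to 37491828 counts. Levels are CPM, counts relative to library size after TMM scaling, and every adjusted p comes from edgeR's quasi-likelihood test with Benjamini-Hochberg adjustment over the 18192 genes. A gene is called higher or lower at an adjusted p under 0.05. Markers of both COC cell types were present. The 10 oocyte markers summed to 1575 to 11020 CPM per library and the 7 granulosa markers to 1965 to 13020 CPM. The 6 stroma markers summed to at most 28.3 CPM and the 5 theca markers to at most 16.9 CPM. Within these lists Lum (stroma) and Insl3 (theca) were at 0 in all 6 cultured groups. Other members went the other way. Against START, the stroma genes Col1a1 and Pdgfra were called higher in CTL at 8 and 12 h, and the theca gene Fbln2 at 8 h. Endothelial markers summed to 20.6 to 73.1 CPM and leukocyte markers to 1.78 to 14.9 CPM. Smooth muscle markers summed to 16.64 to 104.2 CPM and mural granulosa markers to 10.75 to 289.9 CPM. Of the leukocyte markers Ptprc was at 0 in CTL at 12 h, while Csf1r and Cd68 were called higher there than in START. The oocyte sum was unequal among START libraries (10520, 6465 and 2446 CPM in replicates 1, 2 and 3) and among PCI libraries at 4 h (4815, 11020 and 2857 CPM). In bulk libraries, fewer cells of a type and less RNA per cell cannot be told apart.

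Levels of different genes were compared per kilobase of exon (union exon lengths from GENCODE M21). On this scale Thbs1 led in every group, from 362 ± 41.8 CPM per kb in PCI at 8 h to 701 ± 142 CPM per kb in CTL at 4 h (SD, n = 3). Its counts made up 0.219% to 0.411% of all counts, as group means. In START, Ccn1 (116 ± 17.3 CPM per kb), Sparc (85.3 ± 44.4) and Ccn2 (44 ± 15.9) followed it, ahead of Tnc (5.82 ± 0.29) and Fn1 (2.9 ± 0.907). By 12 h in CTL the order below Thbs1 was Sparc (162 ± 5.22), Ccn1 (124 ± 35.5), Tnc (109 ± 9.04), Fn1 (20.6 ± 2.73) and Ccn2 (7.83 ± 3.05 CPM per kb). Sparc, Ccn1 and Tnc thus lay within 1.5 times of each other at that time. Postn and Thbs2 did not exceed a mean of 0.197 CPM per kb in any group.

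**Figure D1:**
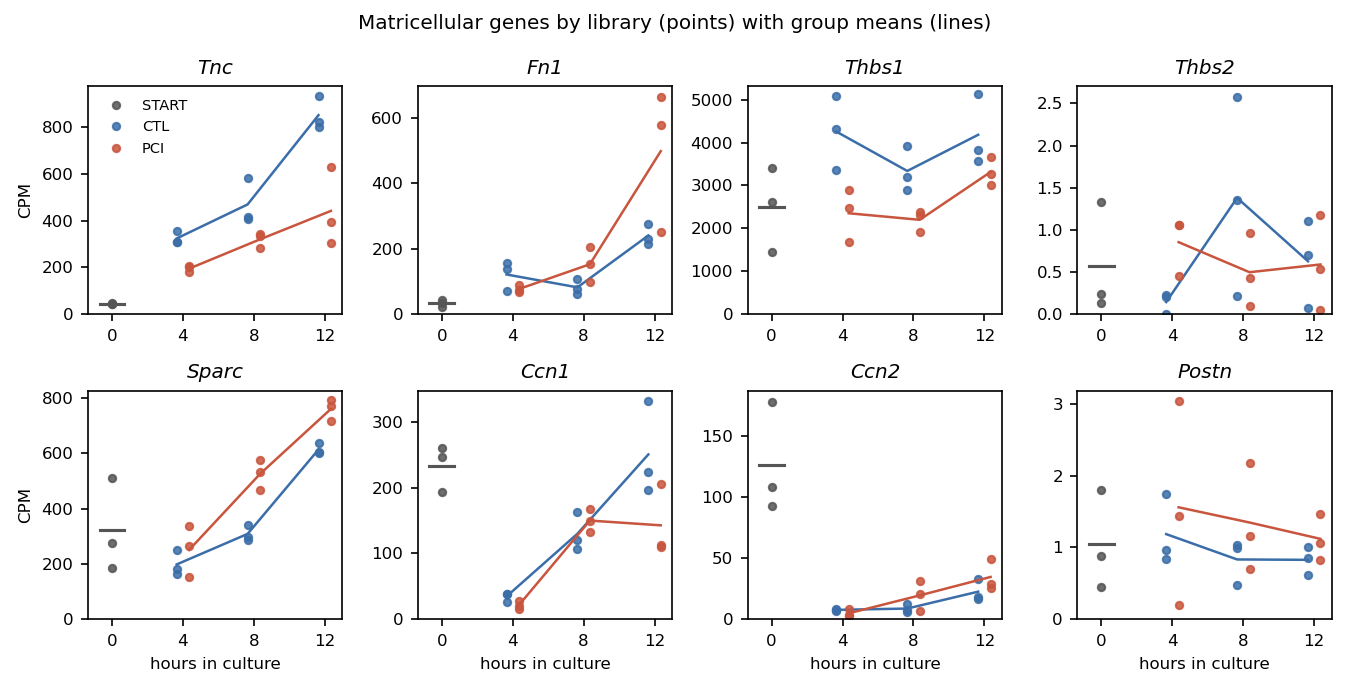
CPM of each matricellular gene (vertical axis, from 0) against hours in culture (horizontal axis). Points are libraries, shifted sideways by arm for visibility, lines join group means for CTL and PCI, and the short bar is the START mean. Tnc is lower in PCI than in CTL at each time without overlap, and Ccn2 drops from a START mean of 126 CPM to 7.52 CPM in CTL at 4 h. Thbs2 and Postn are low and scattered, with libraries at 0 to 2.58 CPM and 0.198 to 3.04 CPM.

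The promoters of 5 of the 8 genes were found in a RefSeq table of build GRCm38.p6, which differs from the build of the counts (mm39). Those of Tnc, the gene called between the arms, and Ccn1, a gene that fell and came back in culture, are shown as the 250 bases before the transcription start, 5′ to 3′ on the gene's strand. For Tnc the second of its listed starts is used.
Tnc (chr4:64046937-64047186, minus strand): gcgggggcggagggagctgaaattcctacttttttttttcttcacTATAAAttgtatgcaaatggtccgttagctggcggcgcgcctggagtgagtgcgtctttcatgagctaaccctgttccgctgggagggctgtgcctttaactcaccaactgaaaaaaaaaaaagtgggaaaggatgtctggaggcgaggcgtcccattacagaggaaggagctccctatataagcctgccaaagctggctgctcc
Ccn1 (chr3:145649986-145650235, minus strand): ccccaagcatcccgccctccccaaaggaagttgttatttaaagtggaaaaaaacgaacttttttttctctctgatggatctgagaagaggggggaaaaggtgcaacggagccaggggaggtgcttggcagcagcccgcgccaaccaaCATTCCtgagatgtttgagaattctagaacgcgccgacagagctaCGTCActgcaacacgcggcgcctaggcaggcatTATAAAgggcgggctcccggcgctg
Capitals mark matches, on either strand, to TATAAA (a common form of the TATA box), CATTCC (the letters bound by TEAD factors, the partners of YAP), TGACTCA (AP-1), TGACG (the cAMP response half-site) and the CArG box of serum response factor. In the Ccn1 window TATAAA lay 25 to 20 bases before the start, CATTCC 103 to 98 and TGACG, on the opposite strand, 58 to 54, with no overlap among the matches. In the Tnc window the only exact match was TATAAA, 205 to 200 bases before the start used. From the first listed start the same letters lay 126 to 121 bases before. Variant forms of the TATA box were not searched, such as the letters tatataag near the 3′ end of the Tnc window. Of 32851 windows of the same length, 12.4% held TATAAA, 12.6% CATTCC, 4.46% TGACTCA, 17.8% TGACG and 1.47% a CArG box.

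Control COCs were compared with START to follow the genes through maturation. Tnc and Fn1 rose at every time, Ccn2 and Ccn1 fell steeply by 4 h, and Sparc was higher at 12 h. After 4 h, 5 of the 8 genes were called, beside 31.5% of all tested genes. These were 3 higher (16.2% of all) and 2 lower (15.3%). The 8 h comparison called 4 (41.3%), namely 2 higher (20.7%) and 2 lower (20.6%). The 12 h comparison called 5 (51.0%), namely 4 higher (25.1%) and 1 lower (26.0%). The median log2 fold changes of the 8 were -0.26, 0.18 and 0.44, against -0.05, -0.08 and -0.06 over all genes. The 3 comparisons share the START libraries. Stroma markers moved over the same times, from a sum of 3.36 to 6.04 CPM in START to 4.07 to 6.56 CPM in CTL at 4 h, 13.1 to 24.9 CPM at 8 h and 19 to 28.3 CPM at 12 h. Of the 5 tested, Col1a1 and Pdgfra were called higher at 8 and 12 h, as were Csf1r and Cd68 of 4 leukocyte markers, while the leukocyte marker Ptprc was lower at all 3 times. Of the 10 oocyte markers 4 were lower at 8 h and 8 at 12 h, with 0 higher. Granulosa markers summed to 5541 to 13020 CPM in START and 2417 to 2857 CPM in CTL at 12 h. Of these 7, Fshr and Inha were lower at 12 h and 0 higher. Among 4 mural granulosa markers Lhcgr, Cyp19a1 and Nppc were lower at 12 h and Cyp11a1 higher. The part of these cells in the changes below was not tested.

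Tnc (ENSMUSG00000028364, mm39 chromosome 4, 63878022 to 63965252, minus strand) encodes tenascin-C, a large glycoprotein that binds integrins and fibronectin and loosens cell adhesion. It was at 44.2, 47.8 and 43.6 CPM in START replicates 1 to 3, at 308, 308 and 354 CPM in CTL at 4 h, at 583, 406 and 417 CPM at 8 h and at 820, 930 and 799 CPM at 12 h. Each time point lay wholly above the one before it. The log2 fold changes from START were 2.84 ± 0.21, 3.37 ± 0.22 and 4.23 ± 0.23 (± SE, adjusted p = 7.34e-09, 8.91e-10 and 5.97e-11). At 12 h this was an 18.8-fold rise, and Tnc kept its call at all 3 times in each of 14 alternative analyses per time. Its neighbouring antisense RNA gene 8030451A03Rik, on the opposite strand of the same region, had 2543 counts in all libraries against 224778 of Tnc.

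Fn1 (ENSMUSG00000026193, chromosome 1, 71624679 to 71692359, minus strand) was at 34.2, 23.2 and 44.4 CPM in START. In CTL it was at 138, 70.2 and 156 CPM at 4 h, 62.6, 75.8 and 108 CPM at 8 h, and 215, 230 and 276 CPM at 12 h. All CTL libraries exceeded all START libraries, but those of 4 and 8 h overlapped each other. The rises from START were 1.84 ± 0.36, 1.28 ± 0.35 and 2.82 ± 0.37 on the log2 scale (adjusted p = 0.000446, 0.00696 and 4.7e-06), and each held in all 14 alternatives. From 4 to 8 h the log2 fold change was -0.56 ± 0.35 (adjusted p = 0.255), and from 8 to 12 h Fn1 rose by 1.55 ± 0.35 (adjusted p = 0.0105). Leaving out CTL 8 h replicate 1 ended the last call (adjusted p = 0.0679).

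Thbs1 (ENSMUSG00000040152, chromosome 2, 117942357 to 117957614, plus strand) encodes thrombospondin-1, a trimer that binds CD36, CD47 and integrins, restrains blood vessel growth and can activate latent TGF-beta. Its START libraries were widely spread, at 1460, 2608 and 3415 CPM, against 5080, 3363 and 4322 CPM in CTL at 4 h, 3198, 3927 and 2890 CPM at 8 h and 3577, 3832 and 5134 CPM at 12 h. The highest START library overlapped the CTL libraries at 4 and 8 h and lay below those of 12 h. The log2 fold changes were 0.77 ± 0.26, 0.42 ± 0.26 and 0.75 ± 0.26 (adjusted p = 0.0294, 0.208 and 0.0231). The 4 h call was lost without START replicate 1, START replicate 2 or CTL 4 h replicate 3 (adjusted p = 0.127, 0.0528 and 0.0677), and the 12 h call without START replicate 1 or CTL 12 h replicate 3 (0.102 and 0.0963). Both were also lost with no filter on low counts (0.0687 and 0.0518) and when only the libraries of the groups compared were fitted (0.226 and 0.0754). Without START replicate 3 Thbs1 was called at 8 h too (log2 fold change 0.79, adjusted p = 0.0196).

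Thbs2 (ENSMUSG00000023885, chromosome 17, 14885762 to 14914497), the related thrombospondin, held 399 counts in all 21 libraries and Postn (ENSMUSG00000027750, chromosome 3, 54268530 to 54298458), a collagen-binding protein of connective tissue, held 677. Thbs2 ranged from 0 to 2.58 CPM and Postn from 0.198 to 3.04 CPM. Neither was called in any comparison with START, with log2 fold changes of -1.93 ± 1.2, 1.27 ± 1.06 and 0.13 ± 1.08 for Thbs2 and 0.19 ± 0.67, -0.32 ± 0.68 and -0.33 ± 0.68 for Postn. Replicates of Thbs2 were far apart, at 40, 4 and 7 counts in START and 65, 6 and 37 counts in CTL at 8 h.

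Sparc (ENSMUSG00000018593, chromosome 11, 55285326 to 55314009, minus strand) encodes a collagen-binding glycoprotein, also called osteonectin, that lowers cell adhesion. It was at 184, 275 and 510 CPM in START. In CTL it was at 250, 163 and 180 CPM at 4 h, 296, 341 and 288 CPM at 8 h and 604, 636 and 600 CPM at 12 h. START was the most uneven of these 4 groups, and only the 12 h libraries lay wholly above it. The log2 fold changes from START were -0.71 ± 0.29, -0.07 ± 0.29 and 0.92 ± 0.29 (adjusted p = 0.0686, 0.869 and 0.0118). Sparc was lowest in the START library with the most oocyte marker RNA and highest in the one with the least. With an oocyte marker score in the model the 12 h value turned to -0.54 (adjusted p = 0.0784), and the 12 h value of Thbs1 shrank to 0.29 (adjusted p = 0.641). That score also differs between START and 12 h, where the markers summed to 1575 to 2362 CPM, so composition and time cannot be told apart here. Without START replicate 1 or with no filter on low counts the 12 h call of Sparc was lost as well (adjusted p = 0.0627 and 0.0602). At 4 h Sparc was called lower without that library (log2 fold change -0.99, adjusted p = 0.00785), with DESeq2 (-0.70, 0.0494), with library-size scaling (-0.82, 0.0258) and with the oocyte score (-0.59, 0.00127). With that score it was called lower at 8 h too (-0.38, 0.0354).

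Ccn1 and Ccn2, formerly Cyr61 and Ctgf, encode cysteine-rich proteins that bind integrins and heparan sulfate and are classic targets of YAP and serum response factor. Ccn1 (ENSMUSG00000028195, chromosome 3, 145352731 to 145355736, minus strand) was at 246, 260 and 194 CPM in START. In CTL at 4 h it was at 38.7, 25.8 and 38.8 CPM. It came back to 107, 162 and 120 CPM at 8 h and 196, 224 and 332 CPM at 12 h. The 4 h libraries lay far below all others, and those of 12 h overlapped START. Ccn1 fell by 2.76 ± 0.28 on the log2 scale at 4 h and by 0.85 ± 0.27 at 8 h (adjusted p = 3.38e-07 and 0.016). At 12 h its log2 fold change was 0.10 ± 0.26 (adjusted p = 0.766), a value that turned to -0.02 when scaled by library size alone. It rose by 1.92 ± 0.27 from 4 to 8 h and by 0.95 ± 0.27 from 8 to 12 h (adjusted p = 0.000129 and 0.0334). The fall at 4 h held in all 14 alternatives. That at 8 h was lost without START replicate 1 or 2 or CTL 8 h replicate 1 or 3 (adjusted p = 0.0504, 0.0551, 0.0723 and 0.0518) and with the oocyte score (0.0585). The rise from 8 to 12 h was lost without CTL 8 h replicate 1 or 3 or CTL 12 h replicate 2 or 3 (0.155, 0.128, 0.0667 and 0.172).

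Ccn2 (ENSMUSG00000019997, chromosome 10, 24471340 to 24474581, plus strand) was at 92.3, 108 and 178 CPM in START. It was at 8.18, 7.61 and 6.77 CPM in CTL at 4 h, 7.77, 6.05 and 12 CPM at 8 h and 16.4, 18.4 and 32.4 CPM at 12 h. Every cultured CTL library was thus below every START library. Ccn2 fell by 4.06 ± 0.52, 3.87 ± 0.51 and 2.49 ± 0.48 on the log2 scale (adjusted p = 4.79e-06, 7.5e-06 and 0.000286), and all 3 calls held in all 14 alternatives. The partial return from 8 to 12 h, 1.38 ± 0.47, did not pass (adjusted p = 0.0773) although those libraries did not overlap. At 12 h Ccn2 was still 5.63-fold lower than START, whereas the interval of the Ccn1 log2 fold change ran from -0.45 to 0.66.

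**Figure D2:**
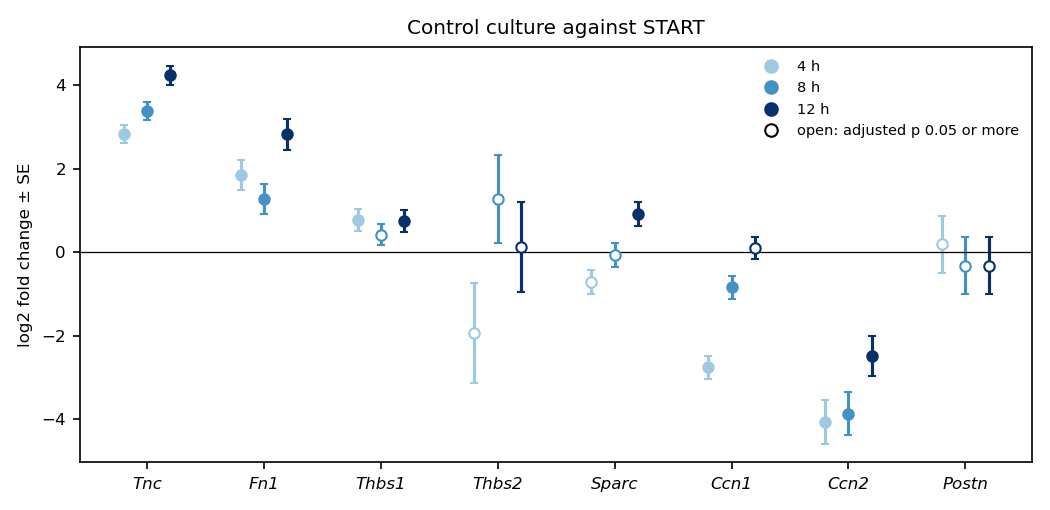
Log2 fold change of CTL at 4, 8 and 12 h against START for each gene, with its SE as the bar. Filled symbols have an adjusted p under 0.05. Tnc and Fn1 are above 0 at each time, Ccn2 is below 0 at each time, and Ccn1 moves from -2.76 at 4 h to 0.10 at 12 h.

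PCI was set against CTL at each time to ask whether blocking the convertases changes these transcripts. Tnc was lower in PCI at every time and passed the test at 12 h. The other 7 genes did not pass at any single time. No gene of the 8 was called at 4 or 8 h and 1 was at 12 h, beside 0.132%, 3.67% and 1.98% of all tested genes, or 1.40% for lower calls at 12 h. The median log2 fold changes of the 8 were -0.66, 0.44 and 0.14, against 0.04, -0.02 and 0.03 over all genes. At an unadjusted p under 0.05, 4 of the 8 passed at 4 h, 5 at 8 h and 3 at 12 h, beside 4.99%, 14.3% and 10.8% of all genes. DESeq2 also called 0, 0 and 1 of the 8, beside 114, 1084 and 688 of all 18192 genes.

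Tnc was at 200, 204 and 180 CPM in PCI at 4 h, 334, 282 and 343 CPM at 8 h and 393, 302 and 628 CPM at 12 h. At each time all PCI libraries lay below all CTL libraries. The log2 fold changes were -0.73 ± 0.20, -0.55 ± 0.20 and -0.95 ± 0.20 (adjusted p = 0.279, 0.168 and 0.0162), so that Tnc was 1.93-fold lower at 12 h, at 441 ± 168 against 850 ± 70.2 CPM (SD, n = 3). Leaving out CTL 12 h replicate 2, PCI 12 h replicate 1 or PCI 12 h replicate 2 ended the 12 h call (adjusted p = 0.0567, 0.0688 and 0.0627), and its value ran from -1.30 to -0.76 over all alternatives.

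A comparison added after the data were seen took the mean of the PCI effect over the 3 times. On it Tnc fell by 0.74 ± 0.12 (adjusted p = 0.000382) and Thbs1 by 0.60 ± 0.15 (adjusted p = 0.0195). These were 2 of the 8 genes, beside 6.07% of all tested genes, and both were lower (3.54% of all). The Tnc call held in all 25 alternatives, while Thbs1 no longer passed once CTL 12 h replicate 3 was left out (adjusted p = 0.0554). Since the single-time values of Tnc were known, its mean value is no independent support of them.

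Thbs1 in PCI was at 2900, 2471 and 1687 CPM at 4 h, 1911, 2302 and 2388 CPM at 8 h and 3008, 3668 and 3267 CPM at 12 h. The arms did not overlap at 4 and 8 h and did at 12 h. Its log2 fold changes were -0.85 ± 0.26, -0.60 ± 0.26 and -0.34 ± 0.26 (adjusted p = 0.422, 0.281 and 0.798). The effect at 12 h minus that at 4 h was 0.52 ± 0.37 (adjusted p = 1).

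Fn1 in PCI was at 89.4, 73.6 and 67.8 CPM at 4 h, 204, 154 and 99.8 CPM at 8 h and 576, 252 and 664 CPM at 12 h. The 12 h libraries were uneven, with replicate 2 inside the range of CTL and the other 2 above it. Log2 fold changes were -0.66 ± 0.35, 0.89 ± 0.35 and 1.05 ± 0.35 (adjusted p = 1, 0.208 and 0.169). Without PCI 12 h replicate 2 the 12 h value was 1.35 and passed (adjusted p = 0.0466).

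Sparc in PCI was at 264, 151 and 336 CPM at 4 h, 576, 533 and 467 CPM at 8 h and 717, 770 and 794 CPM at 12 h. PCI lay wholly above CTL at 8 and 12 h. The log2 fold changes were 0.34 ± 0.29, 0.77 ± 0.29 and 0.31 ± 0.29 (adjusted p = 1, 0.185 and 0.846). Fitted to the 6 libraries of 8 h alone, the 8 h value of 0.77 passed (adjusted p = 0.0103). With the oocyte score Sparc passed at 8 h (0.47, adjusted p = 0.0495) and at 12 h (0.64, adjusted p = 0.00895). The mean of the 3 times, 0.47 ± 0.17 (adjusted p = 0.114), passed with the score (0.44, 0.000505) and without PCI 4 h replicate 2 (0.56, 0.0312). At 4 h the PCI library with the lowest Sparc was again the one with the most oocyte marker RNA, 11020 CPM.

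Ccn1 in PCI was at 19.9, 28.2 and 15.9 CPM at 4 h, 149, 133 and 168 CPM at 8 h and 113, 206 and 110 CPM at 12 h. Each of these groups overlapped CTL of the same time. Its log2 fold changes were -0.69 ± 0.27, 0.21 ± 0.26 and -0.81 ± 0.27 (adjusted p = 0.706, 0.842 and 0.164). The 12 h value passed without PCI 12 h replicate 2 (-1.19, adjusted p = 0.0345) and with the oocyte score (-0.96, adjusted p = 0.0423). The mean of the 3 times, -0.43 ± 0.15, did not pass (adjusted p = 0.122). In 2 of 25 alternatives it did, without PCI 4 h replicate 2 or PCI 12 h replicate 2 (adjusted p = 0.0353 and 0.0254).

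Ccn2 in PCI was at 3.51, 8.03 and 2.68 CPM at 4 h, 31.2, 20.2 and 6.65 CPM at 8 h and 25.3, 28.8 and 49.2 CPM at 12 h. All 3 groups overlapped CTL, and at 8 h replicate 3 stood well below the other 2. The log2 fold changes were -0.67 ± 0.48, 1.17 ± 0.47 and 0.62 ± 0.46 (adjusted p = 1, 0.233 and 0.786). Without PCI 8 h replicate 3 the 8 h value was 1.57 and passed (adjusted p = 0.0475). The arms of Thbs2 did not overlap at 4 h (0.207, 0.226 and 0 CPM in CTL against 1.05, 0.454 and 1.06 CPM in PCI). Thbs2 and Postn again stayed low, and none of their log2 fold changes passed (Thbs2 2.52 ± 1.19, -1.45 ± 1.08 and -0.02 ± 1.09, Postn 0.39 ± 0.67, 0.68 ± 0.68 and 0.44 ± 0.68).

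**Figure D3:**
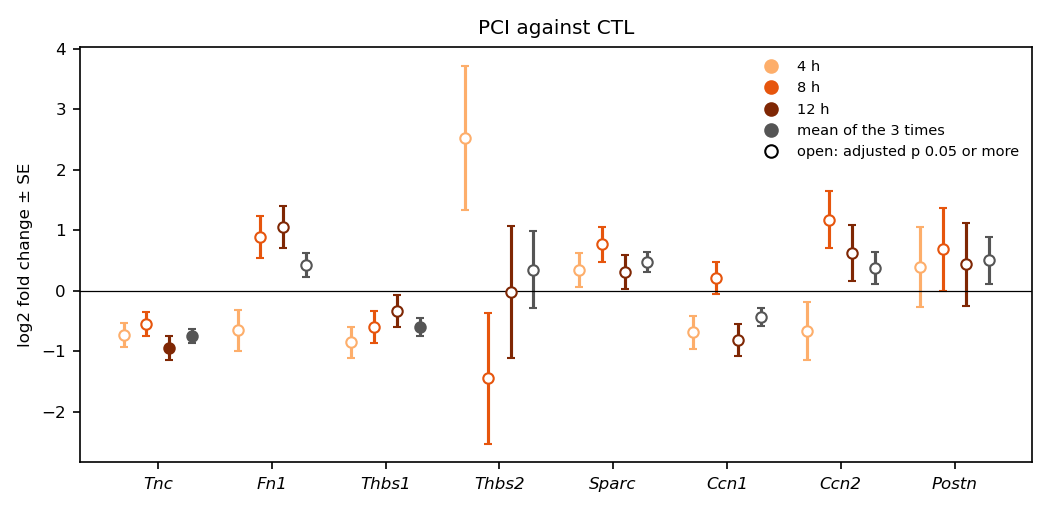
Log2 fold change of PCI against CTL at 4, 8 and 12 h, and as the mean of the 3 times, for each gene, with its SE as the bar. Filled symbols have an adjusted p under 0.05, which holds for Tnc at 12 h (-0.95) and for the means of Tnc (-0.74) and Thbs1 (-0.60).

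Whether the PCI effect changed with time was tested directly. No gene of the 8 passed (adjusted p 0.370 for Fn1 and at least 0.628 for the others), beside 0.0605% of all tested genes. An unadjusted p under 0.05 was seen for 3 of them, beside 6.83% of all genes. DESeq2 called 0 of the 8, beside 185 of all 18192 genes. For Fn1 the effect at 12 h exceeded that at 4 h by 1.71 ± 0.49 on the log2 scale (adjusted p = 0.341). For Ccn1 the effect at 12 h minus that at 8 h was -1.02 ± 0.37 (adjusted p = 0.698). The turns of sign of Fn1, Ccn1 and Ccn2 between times are therefore not shown to be more than spread.

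The steps within each arm gave the shape of the courses. From 4 to 8 h 1 gene rose in CTL (Ccn1) and 5 rose in PCI (Tnc, Fn1, Sparc, Ccn1 and Ccn2), beside 12.1% and 12.3% of all genes called higher (11.1% and 15.2% lower). From 8 to 12 h 4 rose in CTL (Tnc, Fn1, Sparc and Ccn1) and 1 in PCI (Fn1), beside 4.63% and 1.38% (4.17% and 0.995% lower). No gene of the 8 was called lower in any of the 4 steps. In PCI from 4 to 8 h Ccn1 rose by 2.81 ± 0.28, Ccn2 by 2.03 ± 0.49, Sparc by 1.07 ± 0.29, Fn1 by 0.99 ± 0.35 and Tnc by 0.72 ± 0.20 on the log2 scale (adjusted p = 7.42e-06, 0.00472, 0.0105, 0.0408 and 0.0129). From 8 to 12 h Tnc rose by 0.86 ± 0.20 in CTL (adjusted p = 0.0125) and was at 0.46 ± 0.20 in PCI (adjusted p = 0.281), and Sparc rose by 0.99 ± 0.29 in CTL (0.0384) and was at 0.53 ± 0.29 in PCI (0.434). Fn1 rose by 1.71 ± 0.35 in PCI (0.0136). The tests of the difference between the arms are those of the change of the PCI effect above, in which none of these genes passed.

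These step calls were less firm than those against START. The rise of Sparc from 8 to 12 h in CTL was lost whichever of the 6 libraries was left out (adjusted p = 0.0512 to 0.122), that of Tnc without CTL 8 h replicate 3 or CTL 12 h replicate 2 (0.0679 and 0.0572). In PCI from 4 to 8 h the rise of Fn1 was lost in 5 of 6 leave-outs, all but that of PCI 8 h replicate 3 (0.0561 to 0.193), and that of Sparc without PCI 4 h replicate 2 (0.063). From 8 to 12 h in PCI that of Fn1 was lost without PCI 8 h replicate 3, PCI 12 h replicate 1 or PCI 12 h replicate 3 (0.0996, 0.0514 and 0.0796). With the oocyte score the 4 to 8 h rises of Tnc, Fn1 and Ccn2 in PCI and the 8 to 12 h rises of Tnc, Fn1 and Sparc in CTL were lost (0.0612, 0.323, 0.0637, 0.0955, 0.196 and 0.607). With no filter on low counts the rise of Sparc in CTL and both rises of Fn1 in PCI were lost (0.158, 0.127 and 0.0654). Other step calls were gained: Tnc from 4 to 8 h in CTL with library-size scaling and with no filter (0.0255 and 0.0338), Thbs2 from 4 to 8 h in CTL with DESeq2, the oocyte score and the replicate block (0.0215, 0.0432 and 0.0443), and Ccn2 from 8 to 12 h in CTL with DESeq2 (0.0331). The rises of Ccn1 from 4 to 8 h held in all alternatives in both arms.

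Ranking the 7 group means of each gene gave 48 neighbouring pairs, of which 6 differed. For Tnc the order was START, PCI 4 h, PCI 8 h, CTL 4 h, PCI 12 h, CTL 8 h and CTL 12 h. START lay below PCI 4 h, PCI 4 h below PCI 8 h and CTL 8 h below CTL 12 h (adjusted p = 2.61e-07, 0.0129 and 0.0125, with 30.2%, 27.4% and 8.80% of all genes called in those pairs). Among the 4 groups from PCI 8 h to CTL 8 h no neighbours were called, and PCI 8 h (320 ± 32.7 CPM) was next to CTL 4 h (323 ± 26.7 CPM) with an adjusted p of 0.957. For Fn1, START lay below PCI 4 h (adjusted p = 0.0138), and PCI 4 h, CTL 8 h, CTL 4 h, PCI 8 h, CTL 12 h and PCI 12 h followed without a called neighbour. For Ccn1 the pair of PCI 4 h and CTL 4 h lay below CTL 8 h (adjusted p = 0.000129, beside 23.2%), after which came PCI 12 h, PCI 8 h, START and CTL 12 h. For Ccn2, START lay above PCI 12 h, the next group down (adjusted p = 0.00292, beside 47.2%), and no neighbours among the cultured groups were called. Groups farther apart in that order did differ, such as PCI 12 h and PCI 4 h (adjusted p = 0.000198). For Thbs1, Thbs2, Sparc and Postn no neighbours were called. Groups farther apart did differ for Sparc (PCI 12 h and CTL 4 h, adjusted p = 4.17e-05) and Thbs1 (PCI 8 h and CTL 4 h, 0.00912). The same held for Fn1 (PCI 12 h and CTL 8 h, 7.7e-05), while Thbs2 and Postn had no called pair. Sparc ran from CTL 4 h up through PCI 4 h, CTL 8 h, START, PCI 8 h and CTL 12 h to PCI 12 h, and Thbs1 had PCI 8 h, PCI 4 h and START lowest and CTL 12 h and CTL 4 h highest.

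Other genes of the same biology were read from lists chosen with earlier results of these data known. Of 18 genes of receptors for matricellular proteins 16 were tested, and 1, 1 and 3 were lower in PCI at 4, 8 and 12 h with 0 higher, beside 0.132%, 3.67% and 1.98% of all genes called in either direction. The list's median log2 fold changes were -0.17, -0.06 and -0.03, against 0.04, -0.02 and 0.03 over all genes. Itga5, the fibronectin-binding integrin alpha 5 chain, was at 756, 796 and 767 CPM in PCI and 1334, 1661 and 1887 CPM in CTL at 4 h. It was lower without overlap at each time and fell by 1.07 ± 0.20, 1.33 ± 0.21 and 0.88 ± 0.20 (adjusted p = 0.0419, 0.00112 and 0.0259). At 12 h Itgb5, a chain of a vitronectin-binding integrin, fell by 1.18 ± 0.21 (1115, 1032 and 998 against 2557, 2169 and 2402 CPM, adjusted p = 0.0045). Cd36, a scavenger receptor that binds thrombospondin-1, fell by 1.77 ± 0.43 (201, 79.5 and 136 against 663, 396 and 361 CPM, adjusted p = 0.0357). In CTL at 12 h against START 10 of the 16 were higher and 2 lower, beside 25.1% and 26.0% of all genes, and the same shares apply to the 12 h counts of the lists that follow. Itga5 rose from a START level of 12.5 ± 2.17 to 620 ± 9.14 CPM, Itgb3, the partner chain of the integrin alpha v, from 20.5 ± 6.57 to 608 ± 23.8 CPM, and Itgb5 from 378 ± 98 to 2376 ± 195 CPM.

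Of 20 further matricellular genes 19 were tested, and between the arms 0, 1 and 1 were lower and none higher at 4, 8 and 12 h (median log2 fold changes -0.16, 0.23 and 0.15). Over all tested genes the shares called in either direction were 0.132%, 3.67% and 1.98%. These shares also stand beside the counts between the arms in the lists that follow. Ccn4, a relative of Ccn1 and Ccn2, fell by 1.66 ± 0.39 at 8 h and 1.70 ± 0.39 at 12 h (adjusted p = 0.0184 and 0.024). Its 12 h libraries were at 10.8, 16.2 and 10.5 CPM in PCI and 45.2, 31.7 and 45.3 CPM in CTL. In CTL at 12 h against START 7 rose and 5 fell. Unlike Ccn2, Ccn4 rose, from 0.178 ± 0.203 to 40.8 ± 7.8 CPM. Tgfbi, a collagen- and integrin-binding protein related to periostin, rose from 0.835 ± 0.0892 to 48.5 ± 11.7 CPM. Spp1, the integrin ligand osteopontin, rose from 0.113 ± 0.111 to 16810 ± 1475 CPM.

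Of 11 genes of collagen and matrix crosslinking, all tested, Lox was the only one called between the arms at a single time. It encodes lysyl oxidase, which crosslinks collagen and elastin. It fell by 1.87 ± 0.40 at 8 h and 2.78 ± 0.42 at 12 h (adjusted p = 0.0108 and 0.0014), and its 12 h libraries were at 588, 305 and 286 CPM in PCI and 3227, 2462 and 2425 CPM in CTL. The list's medians were 0.07, 0.26 and -0.17. In CTL at 12 h against START 6 rose and 3 fell, with Lox (86.8-fold) and the transglutaminase gene Tgm2 (65-fold) higher and the Lox relative Loxl1 22.5-fold lower.

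Of 20 genes of the YAP-TEAD and serum response factor circuits 19 were tested. In PCI 1 was higher at 8 h (Vcl, the adhesion protein vinculin, 1.29 ± 0.24, adjusted p = 0.0036) and 1 was lower at 12 h (Acta2, smooth muscle actin, -1.89 ± 0.31, adjusted p = 0.00274). List medians were -0.12, 0.23 and -0.10. At 4 h in CTL, when Ccn1 and Ccn2 were lowest, 10 of the 19 were higher than START and 3 lower (median 0.70), beside 16.2% and 15.3% of all genes. At 12 h 13 were higher and 3 lower, among them Tpm1, an actin-binding tropomyosin (3.4 ± 0.21), Acta2 (6.20 ± 0.39) and Ajuba, a LIM protein that acts on YAP (2.60 ± 0.18).

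Of 14 TGF-beta genes 13 were tested. Smad7, an inhibitory SMAD, fell in PCI at all 3 times, by 1.46 ± 0.18, 1.42 ± 0.18 and 0.74 ± 0.18 (adjusted p = 0.00261, 0.000438 and 0.035). At 8 h Tgfbr1, the type I receptor gene, rose by 1.53 ± 0.29 and Tgif1, a SMAD corepressor gene, by 1.28 ± 0.26 (adjusted p = 0.00473 and 0.00677). The counts were 0 higher and 1 lower at 4 h, 2 and 1 at 8 h and 0 and 1 at 12 h, with medians of -0.03, -0.08 and -0.13. In CTL at 12 h against START 6 rose and 2 fell, with Tgfb1 at 5.04 ± 0.26 and Tgfbr2 at 3.80 ± 0.22 higher and Tgfb3 at -2.09 ± 0.25 lower.

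**Figure D4:**
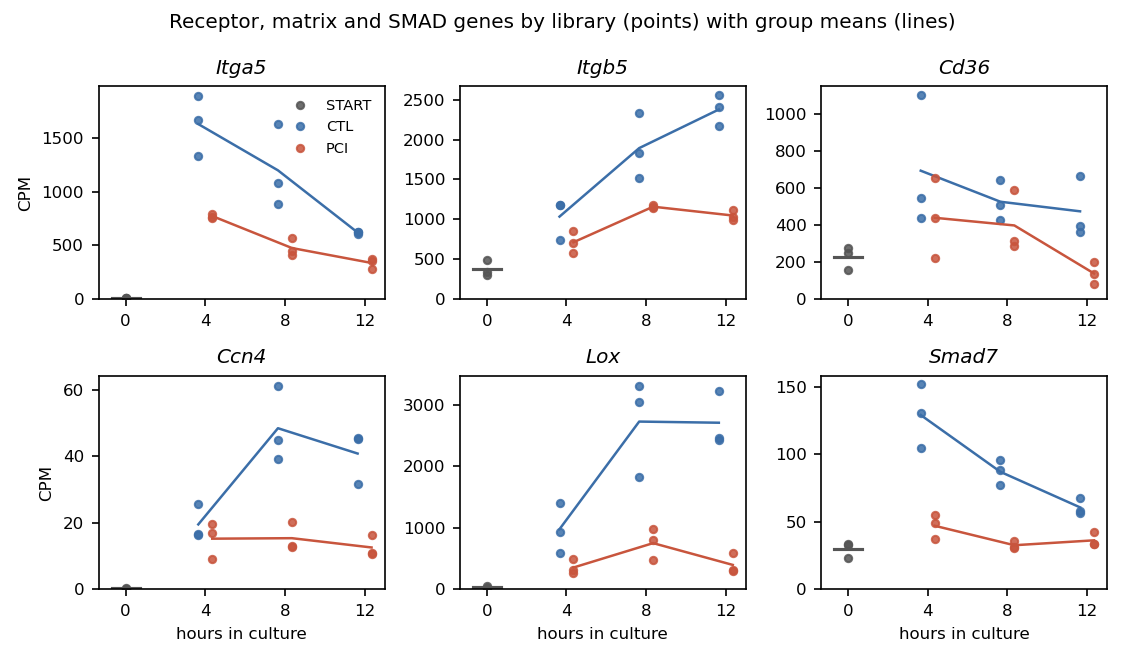
CPM (vertical axis, from 0) against hours in culture (horizontal axis) for the receptor genes Itga5, Itgb5 and Cd36, the matricellular gene Ccn4, the crosslinking gene Lox and the SMAD gene Smad7. Points are libraries, lines join group means for CTL and PCI, and the short bar is the START mean. At 12 h all PCI libraries of these genes lie below all CTL libraries.

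Markers of other cells were read beside these values. Stroma markers summed to 19 to 28.3 CPM in CTL and 6.96 to 8.89 CPM in PCI at 12 h, and among the 5 tested Col1a1 was called lower there, as was Pdgfra at 8 h. Acta2 is also a smooth muscle marker, and that list summed to 57.8 to 76 CPM in CTL and 20.2 to 37.3 CPM in PCI at 12 h. Much of that sum was Acta2 itself, at 45.1, 49.3 and 66.3 CPM in CTL and 17.9, 14.1 and 11.2 CPM in PCI. Acta2 was the only 1 of the 5 smooth muscle markers called there. The part of these cells in the lower Tnc was not tested. No oocyte, granulosa, theca, endothelial or leukocyte marker was called between the arms at any time, and among mural granulosa markers Cyp11a1 was higher at 8 and 12 h.

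The genes with the most similar courses were found by Pearson correlation of log2 CPM over the 21 libraries, which share time in culture and so are given as a description. Nearest to Tnc were Ehbp1l1 (r = 0.965) and Mir100hg (0.959), to Fn1 Ccdc66 (0.930) and Pdlim5 (0.924), and to Thbs1 Arhgap31 (0.841) and Gm47765 (0.775). The neighbours had no minimum level beyond the filter on low counts, and Gm47765 had group means of only 0.0897 to 0.449 CPM. Nearest to Sparc were Ncstn (0.982) and Man2a2 (0.973), to Ccn1 Jmy (0.924) and Entpd5 (0.923), and to Ccn2 Tnks (0.944) and Usp48 (0.928). Ehbp1l1 resembled Tnc in both arms, at 2.82 ± 0.424 CPM before culture and, at 12 h, at 150.5 ± 6.29 CPM in CTL and 91.6 ± 11.7 CPM in PCI. Within the 8 genes the closest pairs were Tnc with Fn1 (0.735) and Ccn1 with Ccn2 (0.713), and Tnc with Ccn2 was the most negative (-0.448).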

How the data were processed

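The authors deposited untransformed counts for each gene and library in a single table, and columns were assigned to samples by their names. The submitters' processing notes name cutadapt, STAR, HTSeq and the build mm39. Versions, annotation and strand setting are not stated there. The kit was stranded, per the labels' protocols, but without the counting setting, reads of genes on the opposite strand (8030451A03Rik, Apol7d, Gm29233 and Gm15270, which overlap Tnc, Fn1, Thbs1 and Ccn2) could not be told apart from those of the members.

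In R 4.3.3, edgeR 4.0.16 kept 18192 genes with filterByExpr and used TMM scaling. All 21 libraries entered one model with a mean for each group, which leaves 14 residual degrees of freedom. The robust quasi-likelihood test was two-sided, and p-values were adjusted by the Benjamini-Hochberg method. Each SE was derived from the log2 fold change and its F value, and log2 CPM used a prior count of 2. Biological variation came to a coefficient of 29.5%. For PCI against CTL the median SE was 0.323 to 0.325. Replicates differed beyond sampling noise, with a chi-square of 23.6 to 289 for each degree of freedom. The model was tested on simulated data. Alternatives, among them DESeq2 1.42.0, are given in the closing section.

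Members and lists were chosen with earlier results of these data known. Named were the 8 members, up to 3 called genes with the smallest p in each list at each PCI time and at CTL 12 h against START, and the 2 genes most correlated with each member of at least 5 CPM. Replicate numbers recur across groups. Deviations of same-numbered CTL and PCI libraries correlated at 0.143 to 0.524 at 4 h. At 8 h the range was 0.108 to 0.267 and at 12 h 0.042 to 0.227. Same-numbered CTL and START libraries correlated at -0.277 to 0.189. Libraries of different number were not compared, so these values do not settle whether the numbers pair the samples. The main model took no pairing, and a replicate block was run as an alternative.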

Additional observations from a re-analysis of the deposited data

How the results depend on the processing

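Of 1071 values of single genes under alternatives, 1013 kept direction and side of the threshold, 21 lost a call, 17 gained one and 20 changed sign. Of the values that changed sign, the 1 that had been called was Sparc in CTL at 12 h against START, which turned to -0.54 with the oocyte score. With that score Postn became -0.14 for PCI at 12 h, 0.60 for CTL at 8 h and 2.43 for CTL at 12 h. Scaling by library size alone, which moved the median of all genes against START to -0.17, -0.13 and -0.16, gave -0.02 for Ccn1 in CTL at 12 h.

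Between PCI and CTL at 8 h 1 gene was called with the oocyte score and 1 with only the 6 libraries of that time (Sparc in both), and 0 to 1 with a library left out. At 12 h 3 were called with the score (Tnc, Ccn1 and Sparc) and 0 to 2 in the leave-outs. Over all 18192 genes the score called 1082 at 8 h and 793 at 12 h, against 667 and 361 in the main model. The 6 libraries of 8 h alone called 866 of 15364 genes. Leave-outs called 272 to 711 genes at 8 h and 128 to 257 at 12 h. Of the 8 members the mean of the 3 times gave 1 to 4, beside 858 to 1811 of all genes. At 4 h and for the change with time no member was called throughout, beside at most 114 and 185 of all genes. Against START 3 members were called at 12 h with no filter on low counts, 3 with the score and 3 to 5 in the leave-outs. Leave-outs gave 4 to 5 at 4 h and 3 to 5 at 8 h. Over all genes the 12 h comparison called 8568 of 34717 with no filter and 5796 of 18192 with the score. The main model called 9286 of 18192. At 4 h Sparc was added with library-size scaling, the score and DESeq2 (adjusted p = 0.0258, 0.00127 and 0.0494). Those settings called 6068, 6932 and 6290 of all 18192 genes, against 5734 in the main model. The steps gave 11 calls of members and 6 with the score, and their total was not computed in the leave-outs. Over all genes the score called 4275 from 4 to 8 h and 3068 from 8 to 12 h in CTL, and 3761 and 2845 in PCI. In the main model these were 4227, 1601, 4992 and 432. The cause was not tested.

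Leave-outs of uncalled genes spanned 0: PCI against CTL for Postn at 4 h (-0.54 to 0.93) and Thbs2 at 12 h (-0.99 to 0.71), and CTL against START for Postn (-0.24 to 0.86, -0.61 to 0.37 and -0.62 to 0.36), Sparc at 8 h (-0.33 to 0.50), Thbs2 at 12 h (-0.63 to 1.75) and Ccn1 at 12 h (-0.10 to 0.25).

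The replicate block changed no count of members against START or between the arms. Between the arms these were 0, 0 and 1, beside 29, 701 and 392 of all 18192 genes. It turned Thbs2 at 12 h to 0.01 and added Thbs2 from 4 to 8 h in CTL (adjusted p = 0.0443), as did DESeq2 and the oocyte score (0.0215 and 0.0432). Thbs2 and Postn held 399 and 677 counts in all, and whether depth or spread between libraries sets their SEs was not tested.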

Other observations

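Averaged over the 3 times, 2 genes chosen after their values were seen differed between the arms in opposite directions. Spp1, which encodes the integrin ligand osteopontin, was higher in PCI by 1.11 ± 0.22 on the log2 scale (adjusted p = 0.00385), while no single time passed. Tgfb1, a growth factor gene, was lower by 0.64 ± 0.12 (adjusted p = 0.00262). In this comparison 3 of 16 receptor genes were lower and 0 higher, beside 3.54% of all genes called lower. Of the 19 further matricellular genes 1 was higher and 2 were lower, beside 460 higher and 644 lower of all 18192 genes tested.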
